A study of Mus musculus with 9 samples.

Results

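The miR-15 and miR-16 family is a set of microRNAs (miRNAs, short RNAs that pair with messenger RNAs and repress them) whose 5p strands share the bases at positions 2 to 8, the seed that sets most of their pairing. The members described here are the rows of 8 named mature miRNAs, and all 8 were found among the 946 rows of the count table. The rule lists them by name and uses no measured value. They are the 5p strands mmu-miR-15a-5p, mmu-miR-15b-5p, mmu-miR-16-5p, mmu-miR-195a-5p and mmu-miR-497a-5p and the 3p partner strands mmu-miR-15a-3p, mmu-miR-15b-3p and mmu-miR-16-1-3p, written below without the species prefix. Small RNA was sequenced from liver of wild-type (WT) C57 BL6 mice aged 8 weeks, in 3 groups of 3 libraries. Control mice received saline. APAP mice received 500 mg/kg acetaminophen (APAP), which at high dose injures hepatocytes, into the peritoneum, and livers were collected 6 h later. The dmPGE2+APAP mice were first given 300 µg/kg dmPGE2, an analog of prostaglandin E2 that carries methyl groups, and APAP at the same dose 1 h afterwards. The labels name no vehicle for dmPGE2 and no livers treated with dmPGE2 by itself. Whether every library comes from its own mouse is not stated, so p-values refer to variation among libraries, part of which could be technical.

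The family is best known for repressing genes that drive the cell cycle, such as those of D-type and E-type cyclins, and the survival gene Bcl2. Its miRNAs are made from paired hairpins that are transcribed together, and miR-16 is abundant in many tissues and in red blood cells, where it often serves as a reference. In heart and liver, members of the family have been studied as brakes on the return of resting cells to the cycle.

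The sequences show why these rows are treated as a family. All 8 members matched RefSeq entries on the GRCm38.p6 assembly, also known as mm10. The mature 5p strands are given 5′ to 3′ with the seed in capitals:
miR-15a-5p: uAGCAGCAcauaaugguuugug
miR-15b-5p: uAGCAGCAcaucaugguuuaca
miR-16-5p: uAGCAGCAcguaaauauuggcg
miR-195a-5p: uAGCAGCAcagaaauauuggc
miR-497a-5p: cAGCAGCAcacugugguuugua

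These 5 strands share the seed AGCAGCA and differ in their other bases. Compared without gaps, miR-16-5p and miR-195a-5p were identical at 19 of 21 positions, and miR-15a-5p and miR-15b-5p at 18 of 22. The least alike pair was miR-16-5p and miR-497a-5p, identical at 11 of 22 positions. Of 10 mature mouse miRNAs with this seed in the reference, 6 were in the count table, the other one being miR-322-5p. The 3p partner strands have seeds of their own, given here in capitals to show that they differ from that of the 5p strands:
miR-15a-3p: cAGGCCAUacugugcugccuca
miR-15b-3p: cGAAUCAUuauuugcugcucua
miR-16-1-3p: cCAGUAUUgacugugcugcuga

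The members come from 3 clusters. miR-15a and the hairpin miR-16-1 lie on the minus strand of chromosome 14 within Dleu2, a long noncoding RNA gene, with 139 bases between the starts of their 5p strands (miR-15a-5p at chr14:61632075-61632096, miR-16-5p at chr14:61631936-61631957). miR-15b and the hairpin miR-16-2 lie on the plus strand of chromosome 3 within Smc4, which encodes a condensin subunit, 143 bases apart (miR-15b-5p at chr3:69009775-69009796, miR-16-5p at chr3:69009918-69009939). miR-497a and miR-195a lie on the plus strand of chromosome 11, 332 bases apart (miR-497a-5p at chr11:70234730-70234751, miR-195a-5p at chr11:70235062-70235082). The mature miR-16-5p is the same from both of its hairpins, so its row cannot be divided between chromosomes 14 and 3. The 3p strands differ, which the hairpins show with both mature arms in capitals:
Mir16-1: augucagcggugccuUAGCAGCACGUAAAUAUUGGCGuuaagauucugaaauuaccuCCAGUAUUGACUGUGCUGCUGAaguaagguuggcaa
Mir16-2: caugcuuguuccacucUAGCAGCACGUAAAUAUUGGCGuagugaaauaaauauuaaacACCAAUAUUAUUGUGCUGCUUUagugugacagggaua

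Library totals ran from 1038799 reads (dmPGE2+APAP replicate 2) to 10483460 reads (Control replicate 3), and the factors of TMM, the scaling used here, from 0.756 to 1.19. Levels below are CPM, the reads of a row scaled to a common library size with those factors; each read is 1 small RNA, so no length enters. The hepatocyte miRNA miR-122-5p stood between 158000 and 324000 CPM in every library. The highest value was that of Control replicate 2, which also had the lowest TMM factor, 0.756. All other libraries lay between 158000 and 212000 CPM. In RNA from bulk liver, fewer cells of a type and less RNA per cell cannot be told apart.

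miR-16-5p, the most abundant member, held most of the family's reads and had nearly equal means in Control and APAP. Control libraries held 593, 494 and 807 CPM, APAP libraries 739, 609 and 538 CPM, and dmPGE2+APAP libraries 659, 445 and 534 CPM. The 3 groups overlapped, with means of 631 ± 160, 629 ± 102 and 546 ± 108 CPM (SD, n = 3), and the highest value was in Control. It ranked 43 of 946 rows by mean level. Of the summed level of all 6 table rows with the seed AGCAGCA (723 CPM), miR-16-5p made up 83.3%, followed by miR-195a-5p at 4.64%, miR-15b-5p at 3.46%, miR-497a-5p at 3.37%, miR-15a-5p at 3.01% and miR-322-5p at 2.26%. By this sum the seed ranked 26 among 682 seeds, taken from the 795 of 946 rows with a matching reference sequence. Rows without such a sequence could not be searched for the seed. The share of miR-16-5p in the reads of the 5 member 5p rows was 85.8% ± 1.81 (SD, n = 3) in Control, 84.3% ± 1.81 in APAP and 84.8% ± 1.94 with both drugs. All 8 members together took 0.0734% ± 0.0256 of the Control reads, 0.0868% ± 0.0106 of the APAP reads and 0.0738% ± 0.00818 of those after both drugs.

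miR-15b-5p, the partner of miR-16-2 on chromosome 3, was the member with the lowest p after APAP. Control libraries held 23.0, 22.6 and 17.8 CPM, APAP libraries 32.1, 27.0 and 37.1 CPM, and dmPGE2+APAP libraries 22.9, 19.6 and 23.1 CPM. Every APAP library lay above every Control and every dmPGE2+APAP library, and the latter groups overlapped. Scaled to library totals alone, the APAP libraries held 33.8, 26 and 44 CPM and again stood apart from both. By that scaling the dmPGE2+APAP group also lay above Control, at 23.2, 22.1 and 23.9 CPM against 20.7, 17.0 and 18.4 CPM. Its 3p partner miR-15b-3p held 4.25, 7.07 and 7.18 CPM in Control, 10.4, 6.03 and 9.56 in APAP, and 6.50, 6.82 and 7.97 after both drugs, with all groups overlapping.

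miR-15a-5p, the partner of miR-16-1 on chromosome 14, was lowest in the livers given both drugs. Control libraries held 23.5, 20.8 and 23.9 CPM, APAP libraries 27.8, 29.4 and 19.4 CPM, and dmPGE2+APAP libraries 19.9, 11.9 and 19.2 CPM. The dmPGE2+APAP libraries all lay below Control on this scale, while by library totals they overlapped Control and lay below APAP instead. The lowest value rests on 14 reads in the shallowest library, with an exact 95% Poisson interval of 6.52 to 20.0 CPM, which covers counting error only and reaches the level of the other libraries of its group. miR-15a-3p was almost absent, with 16 reads in all 9 libraries and between 0 and 3 reads in each. The library with 0 reads is again dmPGE2+APAP replicate 2, where a count of 0 allows up to 3 reads (one-sided 95% limit, counting error only).

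miR-16-1-3p, the 3p strand of the chromosome 14 hairpin, was the second most abundant member. Control libraries held 70.3, 73.9 and 44.5 CPM, APAP libraries 60.9, 72.9 and 56.4 CPM, and dmPGE2+APAP libraries 52.4, 48.6 and 55.2 CPM. Each dmPGE2+APAP library was under each APAP library, by TMM and by library totals, and Control spanned both groups on the TMM scale. By library totals the APAP libraries (64.1, 70.3 and 67.0 CPM) also stood above Control (63.1, 55.9 and 46.1 CPM). The Control library lowest for this strand, replicate 3, was the one highest for miR-16-5p.

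miR-195a-5p and miR-497a-5p, the neighbours on chromosome 11, had overlapping groups by either scaling. miR-195a-5p held 39.3, 21.3 and 45.7 CPM in Control, 38.0, 34.0 and 31.8 in APAP, and 31.9, 26.4 and 33.1 after both drugs. Control alone spanned the whole range of this miRNA, with a coefficient of variation of 35.6% against 9.10% in APAP and 11.7% in dmPGE2+APAP. miR-497a-5p held 25.2, 19.0 and 24.9 CPM in Control, 23.8, 19.4 and 27.3 in APAP, and 23.2, 29.8 and 26.8 after both drugs. Over the 9 libraries it was the least variable of the tested members, with a coefficient of variation of 14.5%.

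In order of mean level over the 9 libraries the members were miR-16-5p at 602 ± 117 CPM (SD, n = 9), miR-16-1-3p at 59.5 ± 10.8, miR-195a-5p at 33.5 ± 7.13, miR-15b-5p at 25 ± 6.11, miR-497a-5p at 24.4 ± 3.53, miR-15a-5p at 21.8 ± 5.19, miR-15b-3p at 7.31 ± 1.83 and miR-15a-3p at 0.283 ± 0.193. miR-15b-5p, miR-497a-5p and miR-15a-5p were neighbours whose means differed by less than their spread, and the range of miR-195a-5p over libraries overlapped that of miR-15b-5p, 17.8 to 37.1 CPM. How readily each sequence is ligated and copied was not measured, so this order is one of reads.

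**Figure D1:**
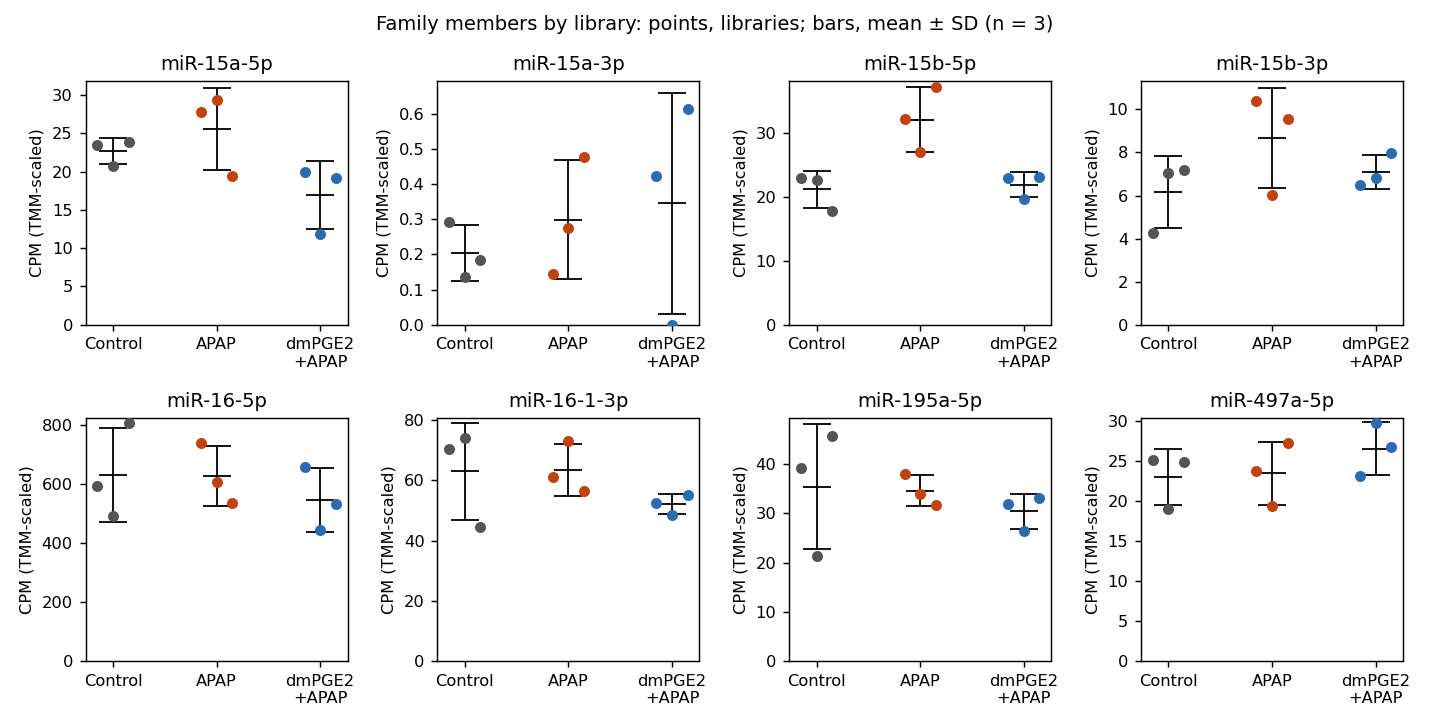
Level of each member (CPM, TMM-scaled, vertical axis starting at 0) in Control, APAP and dmPGE2+APAP. Points are libraries and bars the mean ± SD of 3. miR-15b-5p is the panel in which all APAP libraries, 27.0 to 37.1 CPM, lie above those of both other groups.

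The arms of these hairpins were used to unequal degrees. Over all libraries, 3395 of 3430 reads on the 3p strands of the miR-16 hairpins came from miR-16-1 on chromosome 14 (99.0%), and miR-16-2-3p, of chromosome 3, held 35 reads in all. The share of miR-16-1 lay between 97.1% and 100% in every library. This split concerns the 3p strands alone and does not say which hairpin supplied miR-16-5p. For miR-15a, 16 of 1326 reads of both arms were on the 3p arm (1.21%), and for miR-15b 408 of 1797 (22.7%). For miR-195a, 976 of 2961 reads were on the 3p arm (33.0%), and miR-322, a seed relative on chromosome X, had 4237 of 5210 there (81.3%), so that its strand with the family seed was the rarer one.

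miR-16-1-3p made up 13.0% of its reads and those of miR-16-5p in Control replicate 2 (exact 95% Clopper-Pearson interval 12 to 14.1%) and 5.22% in Control replicate 3 (4.78 to 5.70%). The other 7 libraries lay between these values. For miR-15b the 3p share ran from 15.6% in Control replicate 1 (10.7 to 21.6%) to 28.8% in Control replicate 3 (23.5 to 34.6%). Both extremes of each share were within the saline group. The group means of the miR-15b 3p share were 22.7% ± 6.67 (SD, n = 3) for Control, 21.1% ± 3.11 for APAP and 24.5% ± 2.09 for the group given both drugs.

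**Figure D2:**
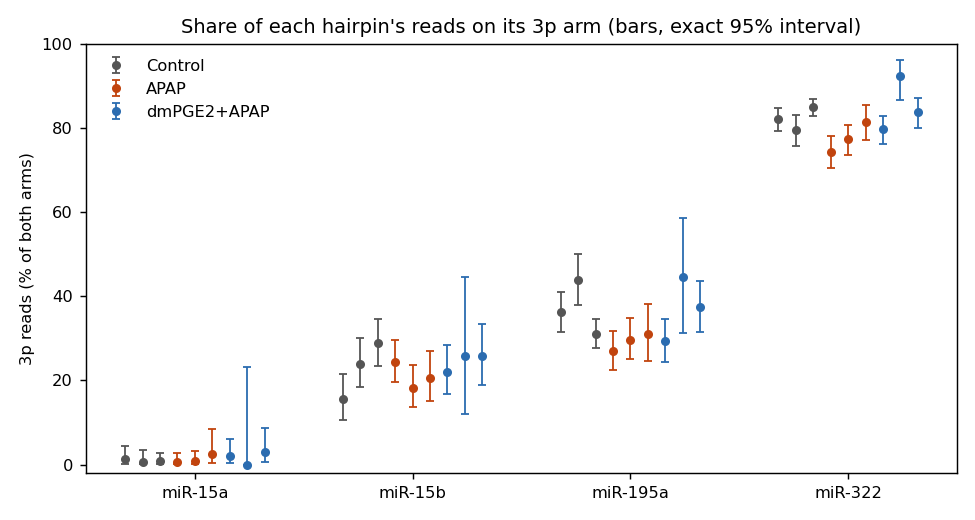
Share of each hairpin's reads that lie on its 3p arm (percent of both arms), by library, coloured by group, with exact 95% intervals for counting error. The order of the hairpins, from miR-15a near 0 to miR-322 at 74.4% and above, is the same in all 9 libraries.

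The first comparison asked what APAP did to the family at 6 h. Of 8 members, 7 passed the filter on low counts and were tested, and 0 were called after APAP, where 0.833% of the 360 tested miRNAs were called at an adjusted p under 0.05 by edgeR's quasi-likelihood test. miR-15b-5p averaged 32.0 ± 5.04 CPM in APAP and 21.1 ± 2.91 in Control (SD, n = 3), a log2 change of 0.60 (SE 0.23). Its unadjusted p of 0.0209 ranked 21 of 360, and its adjusted p was 0.351 by edgeR with Benjamini-Hochberg adjustment. It was the 1 member with an unadjusted p under 0.05, a limit that 9.72% of all tested miRNAs passed, and the 1 of 7 whose groups did not overlap, against 16.7% of all. Over 20 alternatives, in processing or with a library left out, its log2 change stayed between 0.40 and 0.88. Its adjusted p lay between 0.139 (edgeR, library totals) and 0.817 (edgeR, without APAP replicate 1).

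No other tested member had an unadjusted p under 0.05 after APAP. miR-15b-3p was at 0.47 on the log2 scale (SE 0.32), or 0.02 with all libraries thinned to the smallest, and miR-15a-5p at 0.17 (SE 0.26). miR-16-5p was at -0.01 (SE 0.23), miR-16-1-3p at 0.01 (SE 0.23), miR-497a-5p at 0.02 (SE 0.24) and miR-195a-5p at -0.04 (SE 0.27). Under other scalings the signs of these last 4 changed. With library totals miR-16-5p was at 0.20 and miR-195a-5p at 0.16, and with upper-quartile scaling miR-16-1-3p and miR-497a-5p were both at -0.06. Scaling by totals shifted the median miRNA from -0.05 to 0.20. The interval around the value of miR-16-5p runs from -0.46 to 0.45 and leaves room for changes of that size in either direction. The 7 members had a median of 0.02, with 5 above 0 and 2 below, beside a median of -0.05 over all 360 miRNAs, of which 44.7% lay above 0. The members' median moved with the processing: it was 0.29 with library totals, by which all 7 were above 0, and 0.23 without Control replicate 3.

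The second comparison asked what dmPGE2 did on top of APAP. Again 0 of 7 members were called, where 0.278% of all tested miRNAs were. miR-15b-5p averaged 21.9 ± 1.97 CPM in dmPGE2+APAP against 32.0 ± 5.04 in APAP, a log2 change of -0.53 (SE 0.24) with an unadjusted p of 0.0415 and an adjusted p of 0.703 by edgeR. Without APAP replicate 3, its highest library, the log2 change was -0.38. miR-15a-5p averaged 17.0 ± 4.43 against 25.5 ± 5.40 CPM, with an unadjusted p of 0.0594 and also an adjusted p of 0.703 by edgeR. Its log2 change was -0.54 (SE 0.27). Without dmPGE2+APAP replicate 2, the library with 14 reads of it, the value was -0.35, and without APAP replicate 3 it was -0.66. miR-16-1-3p was at -0.28 (SE 0.23), miR-15b-3p at -0.27 (SE 0.34), miR-16-5p at -0.20 (SE 0.23) and miR-195a-5p at -0.17 (SE 0.27). miR-497a-5p was the 1 member above 0, at 0.17 (SE 0.25).

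The members' median was -0.27, with 6 of 7 values below 0, beside a median of 0.00 over all miRNAs, of which 50% lay above 0. Without APAP replicate 1 the members' median was -0.10. Without dmPGE2+APAP replicate 2 miR-16-5p was at -0.03 and miR-195a-5p at -0.05. The members share libraries, some share a hairpin, the 5p strands share a seed, and no value among them passed. Groups did not overlap for 2 of 7 (miR-15b-5p and miR-16-1-3p), against 13.9% of all tested miRNAs. In 1 of 7 the unadjusted p was under 0.05, against 6.39% of all. The APAP libraries enter both of these comparisons, so the higher value of miR-15b-5p in APAP and the lower one with dmPGE2 rest on the same 3 libraries.

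The third comparison set livers given both drugs against Control. Of 7 members, 0 were called, where 0.278% of all tested miRNAs were, and 0 had an unadjusted p under 0.05, which 10.6% of all had. miR-15a-5p had a log2 value of -0.37 (SE 0.26, edgeR adjusted p 0.604). It was at -0.15 without dmPGE2+APAP replicate 2 and at -0.16 with library totals. Of the others, miR-16-1-3p was at -0.27 (SE 0.23), miR-16-5p -0.21 (SE 0.23), miR-195a-5p -0.20 (SE 0.27), miR-15b-3p 0.20 (SE 0.34), miR-497a-5p 0.19 (SE 0.25) and miR-15b-5p 0.07 (SE 0.24). The 3 values above 0 and 4 below had a median of -0.20, beside -0.03 over all miRNAs, of which 46.1% lay above 0. The members' median was 0.00 with library totals (0.19 over all miRNAs), 0.09 with limma-trend, 0.04 without Control replicate 3 and -0.02 without dmPGE2+APAP replicate 2. By limma-trend on CPM of library totals, miR-16-5p, miR-16-1-3p and miR-195a-5p turned to 0.05, 0.01 and 0.09. Groups did not overlap for 1 of 7 (miR-15a-5p), against 14.7% of all.

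A test of any difference among the 3 groups, which uses all 9 libraries at once, called 0 of 7 members, where 1.94% of tested miRNAs were called and 10.8% had an unadjusted p under 0.05. miR-15b-5p had the lowest p of the members, 0.0380 before adjustment and 0.402 after it by edgeR, and the others had adjusted p-values between 0.571 and 0.884. miR-15a-3p was too low to be tested. With no filter on low counts its log2 values had SEs of 1.14 or more. DESeq2, limma-voom and limma-trend likewise called 0 of 7 members in each comparison.

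**Figure D3:**
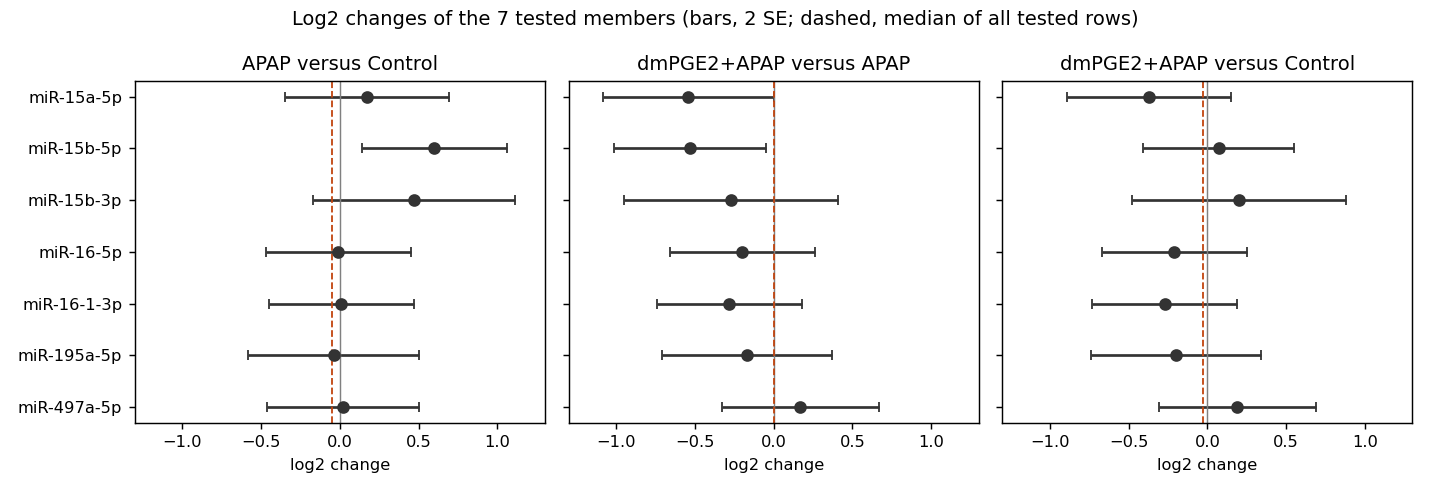
Log2 changes of the 7 tested members in the 3 comparisons (horizontal axis), with bars of 2 SE on each side and a dashed line at the median of all 360 tested miRNAs. The bar of miR-15a-5p in dmPGE2+APAP versus APAP, -1.07 to -0.01, leaves out 0, though its unadjusted p by edgeR was 0.0594. miR-15b-5p lies at 0.60 after APAP and at -0.53 with dmPGE2, and miR-16-5p stays within 0.21 of 0 in each panel.

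Ratios of 2 rows within a library need no scaling between libraries, so they show whether members moved apart from each other. The 8 ratios were compared over the 3 groups with an exact two-sided permutation test, whose smallest possible p was 0.00357, and adjusted over the 8. In the group means miR-15b-5p stood at 3.40% of miR-16-5p in Control, 5.11% with APAP and 4.08% with both drugs. Over the 3 groups the exact permutation p of this ratio was 0.325 (adjusted 0.531). The log2 ratio was higher by 0.59 in APAP than in Control, and the libraries overlapped. For these 2 groups alone the exact permutation p was 0.3. With 3 libraries a group that test cannot go below 0.1, so it could not have passed. Whether miR-15b-5p changed differently from miR-16-5p after APAP was thus not settled. Without Control replicate 3, which held the lowest ratio of 2.21%, the difference was 0.28, and without APAP replicate 3, which held the highest of 6.91%, it was 0.37.

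miR-15a-5p stood at 3.67% of miR-16-5p in Control, 4.04% in APAP and 3.12% with both drugs (exact permutation p 0.236, adjusted 0.531). All dmPGE2+APAP libraries lay at or below 3.62% and under every APAP library, though the closest pair rounds to the same value. Set against each other, miR-15a-5p was at 108% of miR-15b-5p in Control, 79.1% in APAP and 76.5% with both drugs (exact permutation p 0.304, adjusted 0.531). Control libraries ran from 92.2% to 134%, those of APAP from 52.4% to 109%, and those of dmPGE2+APAP, all below Control, from 61.7% to 87.1%. miR-195a-5p stood at 5.46%, 5.55% and 5.67% of miR-16-5p in Control, APAP and dmPGE2+APAP (exact permutation p 0.943, adjusted 0.964). The log2 ratio of miR-195a-5p to its neighbour miR-497a-5p was 0.56 ± 0.36 (SD, n = 3) in Control, 0.57 ± 0.31 in APAP and 0.20 ± 0.33 with both drugs (exact permutation p 0.332, adjusted 0.531).

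Ratios between arms did not pass either. miR-15b-3p stood at 28.8%, 26.7% and 33.0% of miR-15b-5p (exact permutation p 0.636, adjusted 0.848), and miR-16-1-3p at 9.93%, 10.1% and 9.68% of miR-16-5p (exact permutation p 0.964, adjusted 0.964), in Control, APAP and dmPGE2+APAP. For miR-15a the ratio of 3p to 5p rests on 0 to 3 reads per library, and its exact permutation p was 0.111 (adjusted 0.531). Between any 2 groups of 3 libraries the exact permutation test cannot go below 0.1.

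**Figure D4:**
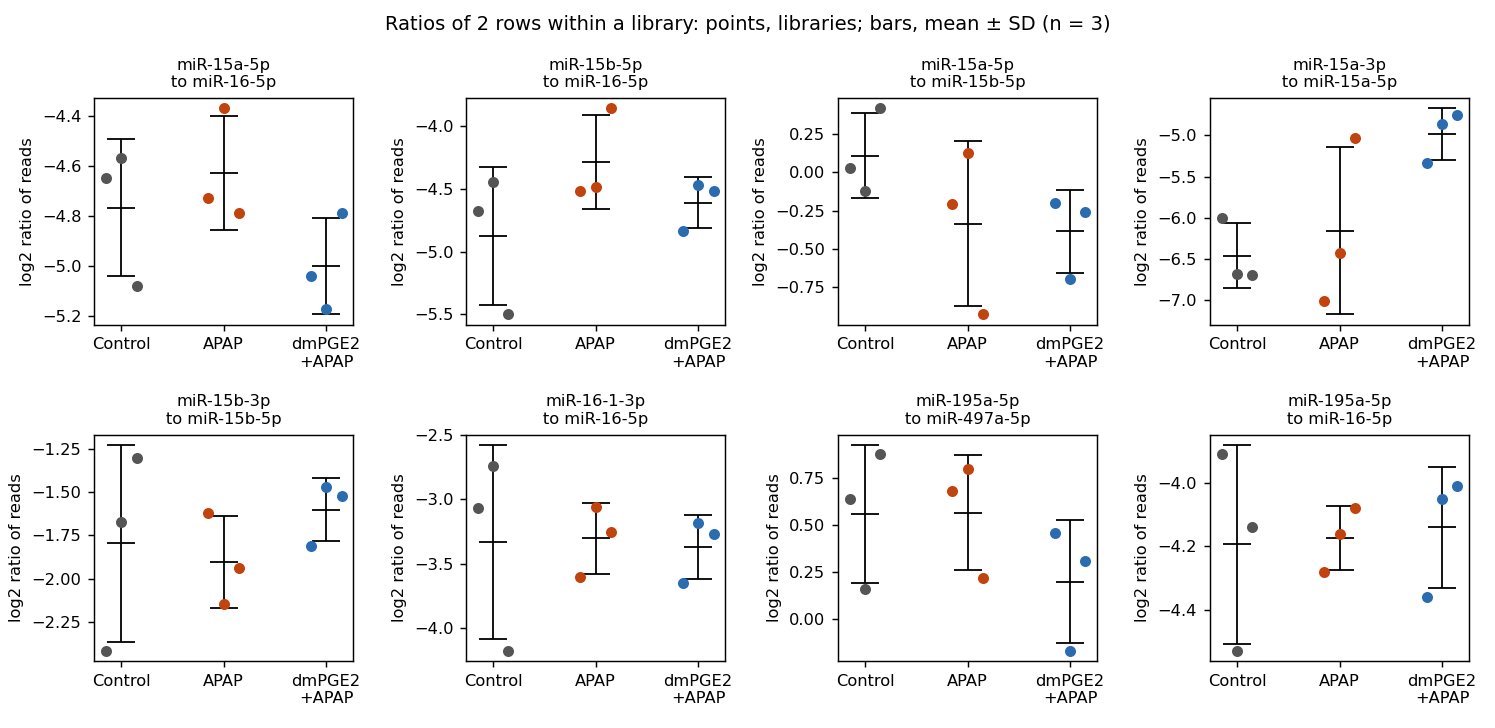
Log2 ratios of reads between 2 rows of the same library (vertical axis) for the 8 ratios compared, by group; points are libraries and bars the mean ± SD of 3. The ratio of miR-195a-5p to miR-16-5p has nearly the same mean in each group, while that of miR-15b-5p to miR-16-5p spans its widest range in Control and APAP.

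Across the 9 libraries the correlations between pairs of tested members ran from -0.69 to 0.81. Pearson's r of log2 CPM was 0.81 between miR-16-5p and miR-195a-5p, made from separate chromosomes, and 0.71 between miR-16-5p and miR-15a-5p. It was 0.00 between miR-16-5p and miR-15b-5p and 0.33 between miR-15a-5p and miR-15b-5p. miR-16-1-3p and miR-16-5p had -0.22, and miR-16-1-3p and miR-497a-5p -0.69. The arms miR-15b-5p and miR-15b-3p had 0.52, and the neighbours miR-195a-5p and miR-497a-5p 0.23. With its own 3p partner strand miR-195a-5p had 0.13. miR-16-5p and miR-195a-5p are identical at 19 of 21 positions. Whether reads of either were counted in the row of the other was not tested. These correlations describe 9 libraries that share scaling and differ in depth, and they include differences between groups. They were not tested, so whether the members move together is not settled by them.

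The miRNAs most like each member over the 9 libraries were sought among 200 tested miRNAs with a mean of at least 10 CPM. The highest of 200 correlations over 9 libraries can be high without any relation, and these values carry no test. miR-15a-5p was most like its seed relative miR-322-5p (r 0.91), then miR-17-5p (0.86) and miR-186-5p (0.85). miR-15b-5p was most like miR-106b-5p (0.83), miR-486a-5p (0.83) and miR-486b-3p (0.82), the last 2 of which have nearly equal counts. miR-16-5p was most like miR-146a-5p (0.85), miR-30b-5p (0.82) and miR-103-3p (0.82), and miR-16-1-3p most like miR-340-5p (0.89), miR-22-3p (0.86) and let-7g-5p (0.83). miR-195a-5p had miR-199a-5p (0.80), miR-467a-5p (0.75) and miR-467b-5p (0.75), and miR-497a-5p had miR-152-3p, miR-199a-3p and miR-690 (0.94 each).

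Levels of blood-cell miRNAs are given beside those of miR-15b-5p. After APAP 0 of 6 red-cell and 0 of 4 neutrophil and macrophage miRNAs were called by edgeR, where 0.833% of all tested miRNAs were. An unadjusted p under 0.05 was found for 6 and 2 of them, against 9.72% of all. With dmPGE2 on top of APAP 1 of 6 was called lower and 0 of 4 were called, where 0.278% of all were. In that comparison 6 and 1 had an unadjusted p under 0.05, against 6.39% of all. Of 7 listed red-cell miRNAs 6 were in the table, and their summed level ranged from 505 to 666 CPM over the Control libraries, from 881 to 1710 over those of APAP and from 439 to 477 with dmPGE2. All 6 were detected in every group. Among them miR-486a-5p, miR-486a-3p and miR-486b-3p, at 1996, 2022 and 1994 APAP reads, have nearly equal counts. The sum may hold those reads up to 3 times, and the counts of 6 take these 3 rows as separate miRNAs. The defining red-cell miRNA miR-451a had a log2 change of 0.97 after APAP (edgeR adjusted p 0.0571). Of 20 alternatives, in processing or with a library left out, 10 called this change, which lay between 0.61 and 1.23. By edgeR's test of any difference among the 3 groups miR-451a was called (adjusted p 0.0116), where 1.94% of tested miRNAs were. It averaged 800 CPM with APAP alone against 295 CPM after both drugs, a log2 change of -1.44 (SE 0.25) at an adjusted p of 0.00993 by edgeR. It had an r of 0.73 with miR-15b-5p, 0.67 with miR-15a-5p and 0.39 with miR-16-5p over the 9 libraries. With miR-15b-3p its r was 0.48, with miR-16-1-3p 0.43, with miR-195a-5p 0.22 and with miR-497a-5p -0.34. The 4 neutrophil and macrophage miRNAs summed to 124 to 233 CPM over Control libraries, 177 to 319 over APAP and 153 to 238 with dmPGE2. For miR-223-3p r was 0.80 with miR-15b-5p, 0.63 with miR-15a-5p, 0.59 with miR-16-5p and 0.56 with miR-15b-3p. It was 0.48 with miR-195a-5p, 0.08 with miR-16-1-3p and -0.10 with miR-497a-5p. The 2 lymphocyte miRNAs summed to 13.9 to 33.1 CPM over Control libraries, 20.1 to 33.1 over APAP and 26 to 30.9 with dmPGE2. The part of these markers in the values of miR-15b-5p was not tested. The call of miR-451a with dmPGE2 on top of APAP was lost without APAP replicate 1. There the log2 change was -1.05 at an edgeR adjusted p of 0.0620. It was also lost when dmPGE2+APAP replicate 2 was left out (-1.35, adjusted p 0.0568 by edgeR) and in a fit of only the groups compared (-1.44, adjusted p 0.0964 by edgeR).

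Of 13 listed seed relatives and partner strands outside the family rows, 7 were in the table and 5 were tested. After APAP 1 of the 5 was called higher and 0 lower, where 0.833% of all tested miRNAs were called. With dmPGE2 on top of APAP 0 were called, where 0.278% of all were. The list was chosen with earlier results of these data known. The called one was miR-503-5p, whose seed AGCAGCG differs from that of the family in its last base, and which stood at 1.68 ± 0.269 CPM for Control, 6.54 ± 1.61 for APAP and 5.80 ± 1.37 with dmPGE2 (SD, n = 3). Its log2 change after APAP was 1.94 (SE 0.36, edgeR adjusted p 0.0224). That value rests on 41 reads in the Control libraries together and 115 in those of APAP. Without any 1 of the Control libraries, APAP replicate 1 or APAP replicate 3 the log2 change was between 1.76 and 2.06 and edgeR's adjusted p between 0.0518 and 0.124, so the call was lost. miR-322-5p, from the same X-linked cluster and with the family seed, was at 0.06 (SE 0.27) after APAP and at -0.34 (SE 0.28) with dmPGE2 on the log2 scale, at means of 17.3, 18.0 and 13.7 CPM in Control, APAP and dmPGE2+APAP. miR-322-3p had -0.38 (SE 0.25) and 0.41 (SE 0.26). miR-195a-3p, the partner strand of miR-195a-5p, averaged 19.9 ± 2.86 CPM in Control, 14.2 ± 0.232 in APAP and 18.1 ± 4.26 with both drugs, at -0.48 (SE 0.26, edgeR adjusted p 0.532) and 0.32 (SE 0.27). Its APAP libraries lay below all Control libraries, in a comparison where 16.7% of all tested miRNAs had groups that did not overlap.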

How the data were processed

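Per the file headers, the table gives a deposited read count and a TPM for each mature miRNA and library. The submitters' processing notes name Bowtie and mm10; versions, the counting tool, its miRNA annotation and its use of strand are not stated there. The deposited TPM of the 6 APAP and dmPGE2+APAP columns equals the count over the library total, with no length term, and entered no test. The 3 count columns with a prefix of their own were assigned to Control by elimination, with the numbers in their names; their 3 TPM columns were not used.

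In R 4.3.3, edgeR 4.0.16 fitted all 9 libraries at once, with 3 group means, TMM, filterByExpr (minimum count 10, total 15) and the robust quasi-likelihood test. Benjamini-Hochberg adjustment ran over all 360 tested rows, at a threshold of 0.05, and SEs come from the F statistic. Ratios used log2 of counts plus 0.5 and exact permutation tests (Python 3.11.15). Intervals on counts cover counting error only, since PCR copies are not independent molecules. Alternatives used DESeq2 1.42.0 and limma 3.58.1. Scripts were tested on simulated data.

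All members were named by rule. Likeness took the 3 highest correlations per member, and listed relatives were named at a mean of at least 10 CPM or an adjusted p under 0.05. Members and lists were chosen with earlier results of these data known. In 0 cases did another row hold nearly the reads of a member (within 5% or 2 reads in each library). That search finds nearly equal rows only, so reads shared in part between rows would not be seen. Marker lists summed, over Control libraries, to 376000 to 525000 CPM for hepatocytes, 7440 to 9110 for endothelium, 25800 to 41500 for mesenchymal cells, 13.9 to 33.1 for lymphocytes and 481 to 2700 for muscle. Over APAP libraries these sums were 329000 to 388000, 7990 to 9430, 24400 to 37000, 20.1 to 33.1 and 313 to 902. Over dmPGE2+APAP libraries they were 353000 to 393000, 8790 to 10200, 25700 to 41500, 26.0 to 30.9 and 340 to 720.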

Additional observations from a re-analysis of the deposited data

How the results depend on the processing

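Members called stayed at 0 under all alternatives run, and of 417 values of members under alternatives 376 kept their direction and 41 changed sign, none of them past the threshold. For the counts over all miRNAs and the changes of sign the cause was not tested. Calls for APAP against Control (3) became 7 with RLE factors, 8 with library totals, 7 with upper-quartile scaling, 9 with no filter, 0 at a mean of at least 10 CPM, 13 with DESeq2, 7 with only the groups compared, 0 after thinning to the smallest library and 8 with limma-trend on CPM of library totals; single libraries left out gave 0 to 9. For dmPGE2+APAP against APAP (1), no filter gave 9, DESeq2 8, only the groups compared 0, and libraries left out 0 to 5. For dmPGE2+APAP against Control (1), RLE, library totals, no filter and DESeq2 gave 2 each, the 10 CPM minimum and thinning 0, and libraries left out 1 to 2. For any difference (7), no filter and DESeq2 gave 15, the 10 CPM minimum and thinning 1, voom and limma-trend 4, and libraries left out 1 to 7.

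After APAP, miR-16-5p turned to 0.01 with RLE, DESeq2 and voom, 0.20 with library totals, 0.00 at the 10 CPM minimum and with only the groups compared, and 0.27 with limma-trend (libraries left out, -0.15 to 0.23). miR-16-1-3p turned to -0.06 with upper-quartile scaling, -0.04 with no filter and -0.08 after thinning (-0.16 to 0.17). miR-195a-5p turned to 0.16 with library totals, 0.03 with voom, 0.35 after thinning and 0.28 with limma-trend (-0.29 to 0.21). miR-497a-5p turned to -0.06 with upper-quartile scaling, -0.05 with no filter and -0.07 after thinning (-0.09 to 0.15). Between dmPGE2+APAP and Control, miR-15b-5p turned to -0.02 with no filter and -0.19 after thinning (-0.01 to 0.22), miR-15b-3p to -0.10 after thinning, and, with limma-trend, miR-16-5p to 0.05 (-0.35 to 0.04), miR-16-1-3p to 0.01 and miR-195a-5p to 0.09 (-0.41 to 0.05). Differences of log2 ratios after APAP, with libraries left out, ran from -0.02 to 0.24 for miR-15a-5p to miR-16-5p, 0.28 to 0.80 for miR-15b-5p to miR-16-5p, -0.68 to -0.15 for miR-15a-5p to miR-15b-5p, -0.26 to 0.73 for the arms of miR-15a (-0.15 on CPM of library totals), -0.42 to 0.14 for those of miR-15b, -0.40 to 0.32 for miR-16-1-3p to miR-16-5p, -0.19 to 0.18 for miR-195a-5p to miR-497a-5p and -0.15 to 0.16 for miR-195a-5p to miR-16-5p.

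The labels state no pairing of libraries by replicate number. Correlations of same-numbered libraries ran from -0.25 to 0.19, with 2 of 9 over 0.1. Those of other pairs ran from -0.3 to 0.15, with 7 of 18 over 0.1. With 3 libraries a group these values cannot settle whether same-numbered libraries were handled together. With the replicate block, 0 miRNAs were called for APAP against Control, 2 for dmPGE2+APAP against APAP and 2 for any difference, miR-16-5p after APAP turned to 0.01 and miR-195a-5p to 0.02, and miR-503-5p was at an adjusted p of 0.0540 by edgeR. The alternatives planned on deposited TPM were not run, since its Control columns were not used; those on CPM of library totals, the same quantity, took their place and were chosen after seeing the data. Depth limits miR-15a-3p, at 0 to 3 reads in each library, and every member in dmPGE2+APAP replicate 2, at 1038799 reads in all.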
